A study of Homo sapiens with 12 samples.

Results

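The 8 genes described here encode the RNA-binding proteins that mark cytokine messenger RNA for decay, namely 3 regnases (ZC3H12A, ZC3H12C and ZC3H12D), 3 proteins of the ZFP36 family (ZFP36, ZFP36L1 and ZFP36L2) and both roquins (RC3H1 and RC3H2). They were picked by symbol from the 78932 genes of the deposited tables, and 7 of the 8 were among the 14065 genes that passed the filter on low counts. ZC3H12D did not pass. The cells were THP-1, an established human monocytic leukaemia line, and the 12 libraries fall into 4 groups of 3. The CEL libraries came from cells given LPS, ATP, cyclosporin A, eltrombopag and luspatercept. The CE libraries came from cells given LPS, ATP, cyclosporin A and eltrombopag. The LPS libraries came from cells given LPS and ATP without a drug, as a model of pyroptosis, and the NC libraries were the normal control. LPS activates the receptor TLR4, ATP opens the P2X7 channel, cyclosporin A inhibits calcineurin, eltrombopag is a thrombopoietin receptor agonist that also binds iron, and luspatercept is a ligand trap for proteins of the TGF-beta superfamily. Doses and times are not given in the labels, all groups are the same cell line, and cyclosporin A and eltrombopag were given only together, so their parts cannot be told apart.

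Cytokine transcripts are short-lived because proteins bind their 3′ untranslated regions. ZFP36, also called tristetraprolin, and its relatives bind AU-rich elements and recruit the CCR4-NOT deadenylase complex, and the kinase MAPKAPK2 phosphorylates ZFP36 and restrains it. The regnases are endoribonucleases that cut stem-loops, ZC3H12A being the best studied, and the roquins bind stem-loops of the constitutive decay element type. In macrophages these proteins limit IL6, TNF and other inflammatory transcripts, and several of them restrain their own transcripts. Because decay acts on transcripts and these libraries measured steady levels, no decay rate was measured.

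The core AU-rich motif is the nonamer TTATTTATT, searched as written on the sense strand with overlapping matches allowed. It stood in the 3′ untranslated region of 5 of the 8 genes (62.5%), of 14 of 31 reported target transcripts (45.2%) and of 1556 of 19093 protein-coding genes (8.15%). The regions differed in length, with medians of 2902.5 bases for the 8 genes, 706 bases for the targets and 1040 bases for all protein-coding genes. The windows below, from the longest protein-coding transcript of each gene in GENCODE v29, show the sites that ZFP36-type proteins can bind, with the nonamer in capitals. The targets TNF, CXCL2 and PTGS2 come first and the decay factors after them.
TNF: ttaTTATTTATTTATTATTTATTTATT
CXCL2: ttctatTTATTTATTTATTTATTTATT
PTGS2: tgatcatatTTATTTATTtatatgaac
ZFP36: atgacgactTTATTTATTctaatatga
ZFP36L1: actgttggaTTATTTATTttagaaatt
ZFP36L2: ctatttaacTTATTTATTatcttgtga
ZC3H12C: ttacacccaTTATTTATTagagatatt
RC3H2: ttagttaacTTATTTATTtctatttta
In the TNF and CXCL2 windows 4 overlapping nonamers run together, while the windows of the decay factors hold 1 each. All 3 ZFP36 genes carried the nonamer, and RC3H1, ZC3H12A and ZC3H12D did not.

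Libraries held 17737240 to 23183474 counts. The first principal component held 55.6% of the variance and separated the groups, and on the second (18.6%) CE-2 lay at -14.5, apart from CE-1 at 26.9 and CE-3 at 20.0. CE-2 also held more reads of GC-rich transcripts than CE-1 and CE-3 did. Among genes with a transcript GC content of 55 to 60%, the median deviation from the CE mean in log2 CPM was 0.58 in CE-2, against -0.34 in CE-1 and -0.24 in CE-3. A smaller deviation of the same sign from their own group means stood in LPS-3 (0.19) and CEL-1 (0.17). Monocytic markers were present, with 13 of 14 above 1 CPM in every group. The summed level of 10 lymphocyte markers was 9.67 to 10.3 CPM in CEL, 23.0 to 24.1 in CE, 18.6 to 20.7 in LPS and 18.1 to 21.0 in NC. The highest of them was NCAM1 in CEL (6.52 CPM), CE (18.7) and NC (15.7), and TRAC in LPS (7.41). CD3D, CD3E, CD3G and CD8A had group means of at most 0.117 CPM. Of 8 erythroid and megakaryocyte markers none was above 1 CPM in any group. The summed level of 10 fibroblast, epithelial and endothelial markers was 34.6 to 39.9 CPM in LPS and at most 3.4 CPM elsewhere, and 9 of the 10 failed the filter on low counts. The LPS sum was nearly all DCN, with a mean of 37.2 CPM, and each other marker of this list had a mean of at most 0.0785 CPM in LPS. In bulk RNA, fewer cells of a kind and less RNA per cell cannot be told apart.

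The level of the whole set was carried by few genes. In CEL and CE the order by TPM, which corrects for transcript length, was ZC3H12C, RC3H2 and then RC3H1. In LPS and NC it was RC3H2, RC3H1 and then ZC3H12C. Each of the remaining genes was at 12.6 TPM or lower in every library. ZC3H12C made up 49.4 to 51.6% of the summed TPM of the 8 genes in CEL and 45.2 to 46.8% in CE, against 12.9 to 15.6% in LPS and 7.81 to 8.24% in NC. The regnases together averaged 70.1 ± 4.29 TPM in CEL, 50.6 ± 8.96 in CE, 6.80 ± 1.16 in LPS and 2.41 ± 0.63 in NC (SD, n = 3 each). ZC3H12C alone averaged 69.2 TPM in CEL, 49.7 in CE, 5.99 in LPS and 2.11 in NC. The regnase sum thus follows this gene and is a description, not a trait of all 3 regnases. The roquins together averaged 58.6 ± 1.68 TPM in CEL, 47.7 ± 4.98 in CE, 26.3 ± 4.35 in LPS and 20.4 ± 3.16 in NC. The ZFP36 family averaged 9.18 ± 2.97 TPM in CEL, 10.0 ± 7.87 in CE, 8.58 ± 3.22 in LPS and 3.32 ± 0.88 in NC. The ZFP36 family's spread in CE covered its CEL and LPS ranges.

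**Figure D1:**
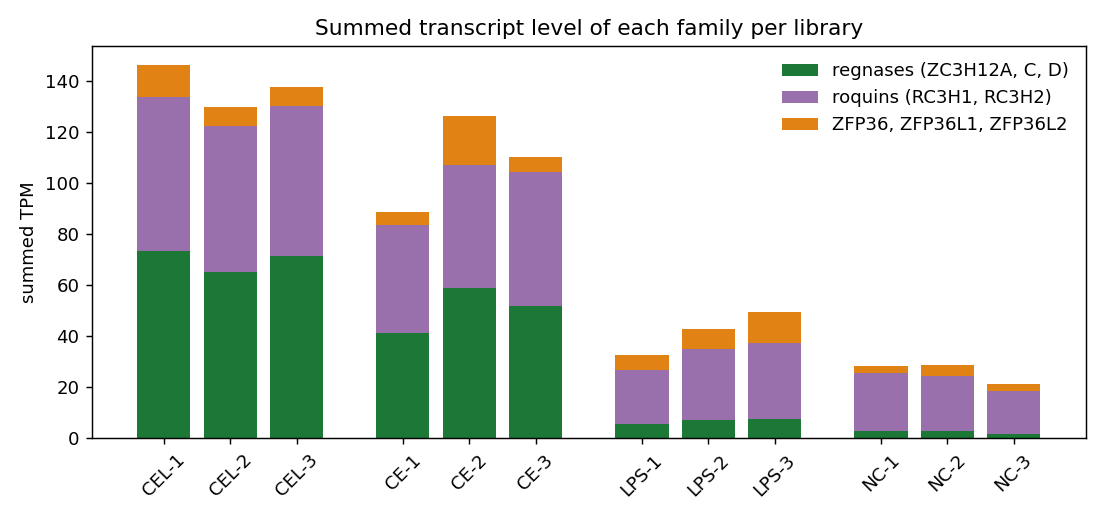
Summed TPM of the regnases, the roquins and the ZFP36 family in each of the 12 libraries, stacked. The regnase segment, mostly ZC3H12C, reaches 65.3 to 73.5 TPM in CEL and 41.1 to 58.9 in CE, against 5.48 to 7.67 in LPS and 1.68 to 2.80 in NC.

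ZC3H12C, the regnase known as regnase-3, had the widest range in TPM. Its values were 72.3, 64.2 and 71.1 TPM in CEL, 40.5, 57.0 and 51.5 in CE, 4.92, 6.69 and 6.37 in LPS, and 2.32, 2.37 and 1.65 in NC. The 4 groups did not overlap and stood in the order CEL, CE, LPS and NC from high to low. The estimated counts behind these values were 8464 to 10470 in CEL, 5938 to 7668 in CE, 839 to 913 in LPS and 286 to 392 in NC. LPS exceeded NC by 1.35 ± 0.09 on the log2 scale (2.54-fold, adjusted p = 3.52e-07 by edgeR's quasi-likelihood test with Benjamini-Hochberg adjustment, higher in 3 of 3 libraries), where ± is an approximate standard error. The genes were chosen with the rise of ZC3H12C in CE over LPS already known, so the excess of 3.03 ± 0.09 (8.19-fold) in CE over LPS and of 3.45 ± 0.09 (11.0-fold) in CEL over LPS is given as a description with no test. CEL exceeded CE by 0.42 ± 0.08 (1.34-fold, adjusted p = 0.004 in the same edgeR test). This last call was lost with limma on log2(TPM + 1), where the adjusted p was 0.219.

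Each batch number of the labels holds 1 library of every group. Since the 4 groups did not overlap, the same order had to hold within each number. The differences by batch therefore show sizes only and add no support. For CEL over LPS the log2 differences of ZC3H12C were 3.39, 3.29 and 3.68 in batches 1, 2 and 3, and for CE over LPS they were 2.75, 3.09 and 3.24. For LPS over NC they were 1.40, 1.42 and 1.19, and for CEL over CE 0.63, 0.20 and 0.44. ZC3H12C lies on chromosome 11 at 110093361 to 110171841 (GRCh38, GENCODE v29, plus strand) and overlaps RDX on the opposite strand. The strand setting of the counting is not given in the sources used here, so reads of the shared stretch cannot be assigned to one of the pair.

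**Figure D2:**
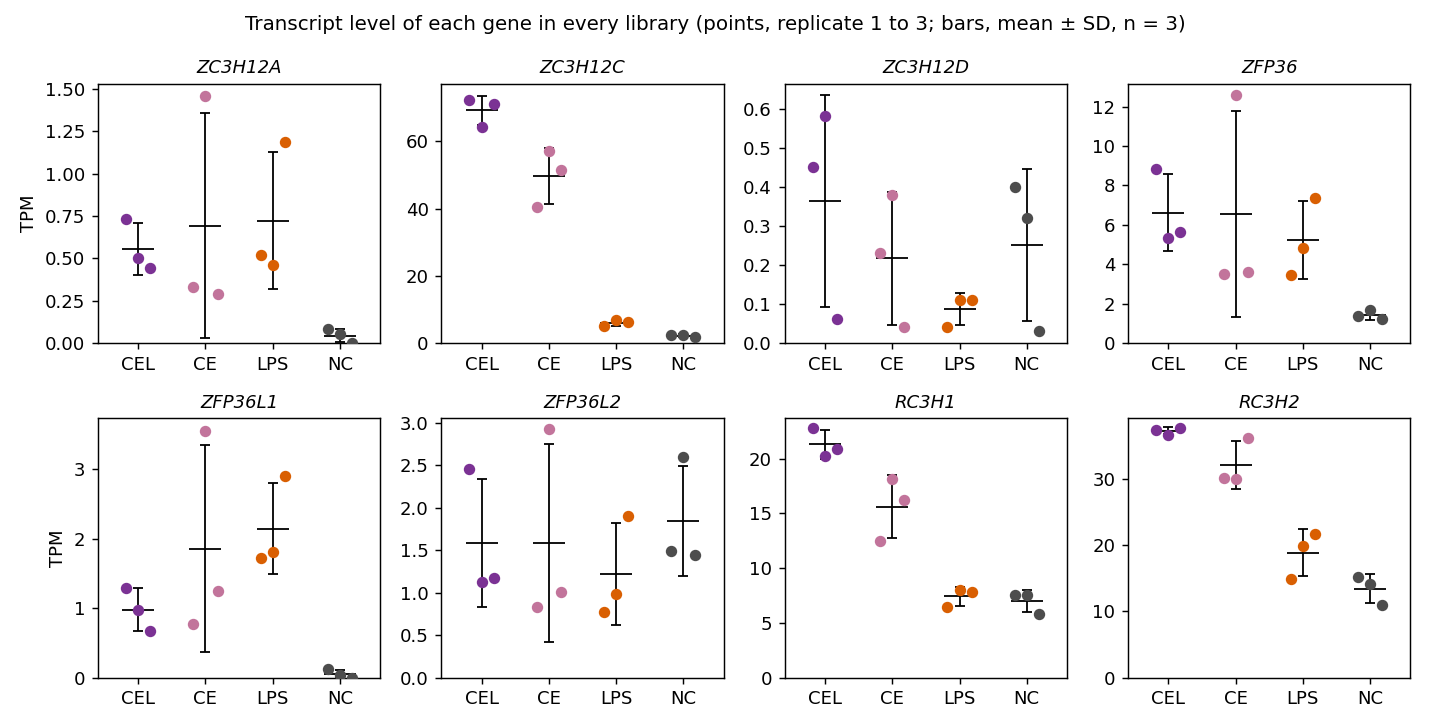
TPM of each of the 8 genes in each library (points) with the group mean and SD (bars), on linear axes that differ between panels. ZC3H12C reaches 64.2 to 72.3 TPM in CEL and stays at 1.65 to 2.37 in NC, while ZC3H12A, ZFP36, ZFP36L1 and ZFP36L2 have their highest CE value in CE-2.

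ZC3H12A, which encodes regnase-1, was low throughout. It had 25, 10 and 16 counts in CEL, 14, 57 and 12 in CE, 27, 18 and 47 in LPS, and 4, 2 and 0 in NC. LPS lay above NC in 3 of 3 libraries, with 92 counts in all against 6, a ratio of 15.2 with an exact 95% interval of 6.73 to 42.5 that covers counting error only. The fitted log2 change was 3.86 ± 0.84 (adjusted p = 0.00289, edgeR), and 4.67 without NC-1 (adjusted p = 0.00727). In CEL against LPS the change was -0.80 ± 0.64 (adjusted p = 0.316), and in CEL against CE it was -0.71 ± 0.64 (adjusted p = 0.473) and 0.36 without CE-2 (adjusted p = 0.668), with overlapping values in both. CE and LPS overlapped too, the highest CE count being that of CE-2. ZC3H12D, regnase-4, had 10, 11 and 3 counts in CEL, 4, 9 and 4 in CE, 3, 2 and 3 in LPS, and 12, 5 and 3 in NC, and was not tested. In CPM every LPS library lay below every library of the other groups for ZC3H12D, at 2 to 3 counts against 3 to 12. No difference in ZC3H12D was called at this depth. Fitted without the filter, its adjusted p in edgeR was 0.168 for CEL against LPS, 0.407 for LPS against NC, 0.516 for CE against LPS and 0.839 for CEL against CE.

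The roquins, like ZC3H12C, were higher in the drug-treated libraries than in LPS. RC3H1 had 22.8, 20.2 and 20.9 TPM in CEL, 12.5, 18.1 and 16.3 in CE, 6.43, 8.00 and 7.86 in LPS, and 7.51, 7.57 and 5.81 in NC. CEL lay above CE in 3 of 3 libraries, both lay above LPS, and LPS and NC overlapped. RC3H1 rose in CEL over LPS by 1.33 ± 0.08 (2.51-fold, adjusted p = 1.09e-07, edgeR). Its log2 difference of CE over LPS was 1.00 ± 0.08 (2.01-fold), given as a description. In LPS against NC the change was -0.01 ± 0.08 (adjusted p = 0.921), with an approximate 95% interval of -0.19 to 0.17 and a sign that differed among the 16 alternatives (-0.16 to 0.10). In CEL over CE it was 0.33 ± 0.08 (1.25-fold, adjusted p = 0.0124), a call lost without CEL-3 (adjusted p = 0.0542), without the filter on low counts (0.173) and with limma on log2(TPM + 1) (0.281).

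RC3H2 had 37.4, 36.7 and 37.7 TPM in CEL, 30.1, 30.0 and 36.2 in CE, 14.9, 19.9 and 21.8 in LPS, and 15.2, 14.1 and 11.0 in NC. Every CEL and CE library lay above every LPS library, LPS and NC overlapped in TPM though not in CPM, and CEL and CE overlapped in CPM though not in TPM. RC3H2 rose in CEL over LPS by 0.97 ± 0.07 (1.96-fold, adjusted p = 2.94e-07, edgeR). The log2 difference of CE over LPS was 0.86 ± 0.07 (1.81-fold), given as a description. In LPS over NC RC3H2 rose by 0.37 ± 0.07 (1.29-fold, adjusted p = 0.000917), a call lost with limma on log2(TPM + 1) (0.0756). CEL and CE differed by 0.11 ± 0.07 (adjusted p = 0.262, approximate 95% interval -0.03 to 0.26), a value that passed with an offset for GC content (0.16, adjusted p = 0.0179). Within batches 1, 2 and 3, CEL exceeded LPS by 0.85, 0.90 and 1.16 for RC3H2 and by 1.22, 1.26 and 1.51 for RC3H1. The signs were fixed in advance, since CEL and LPS did not overlap for either gene.

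Since ZC3H12C and RC3H2 were both higher in CEL and CE than in LPS, the 250 bases upstream of a RefSeq start of each (GRCh38.p14) are shown. The window listed for RC3H1 lies inside the gene as GENCODE v29 places it and is not shown. Capitals mark matches on either strand to the E-box CACGTG, the cyclic AMP element TGACGTCA, the NFAT core GGAAAA or the kappaB consensus, and touching or overlapping matches merge.
ZC3H12C, chr11:110093142-110093391, plus strand: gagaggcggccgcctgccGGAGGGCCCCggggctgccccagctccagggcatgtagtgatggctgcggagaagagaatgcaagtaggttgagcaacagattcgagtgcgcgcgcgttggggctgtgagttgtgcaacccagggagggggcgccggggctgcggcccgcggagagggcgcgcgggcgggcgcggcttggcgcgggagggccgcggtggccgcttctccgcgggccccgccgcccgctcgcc
RC3H2, chr9:122905360-122905609, minus strand: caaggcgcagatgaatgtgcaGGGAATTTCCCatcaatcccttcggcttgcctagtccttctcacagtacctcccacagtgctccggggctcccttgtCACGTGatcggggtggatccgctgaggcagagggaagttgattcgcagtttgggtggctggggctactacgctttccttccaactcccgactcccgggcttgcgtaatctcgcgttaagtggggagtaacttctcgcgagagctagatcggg
The ZC3H12C window held a kappaB match, and the RC3H2 window an E-box and 2 overlapping kappaB matches on opposite strands. A second start listed for ZC3H12C held no match. The windows of ZC3H12A and ZFP36, which rose in LPS over NC, held no match either. ZFP36L1, which also rose there, had a window with a cyclic AMP element and an NFAT core, and another with no match. The RC3H1 window held an NFAT core. Of 35116 promoter windows of the same length, 9.96% held a kappaB match, 21.2% an NFAT core, 6.34% an E-box and 1.65% a cyclic AMP element. A match describes letters only, and factor binding was not measured.

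**Figure D3:**
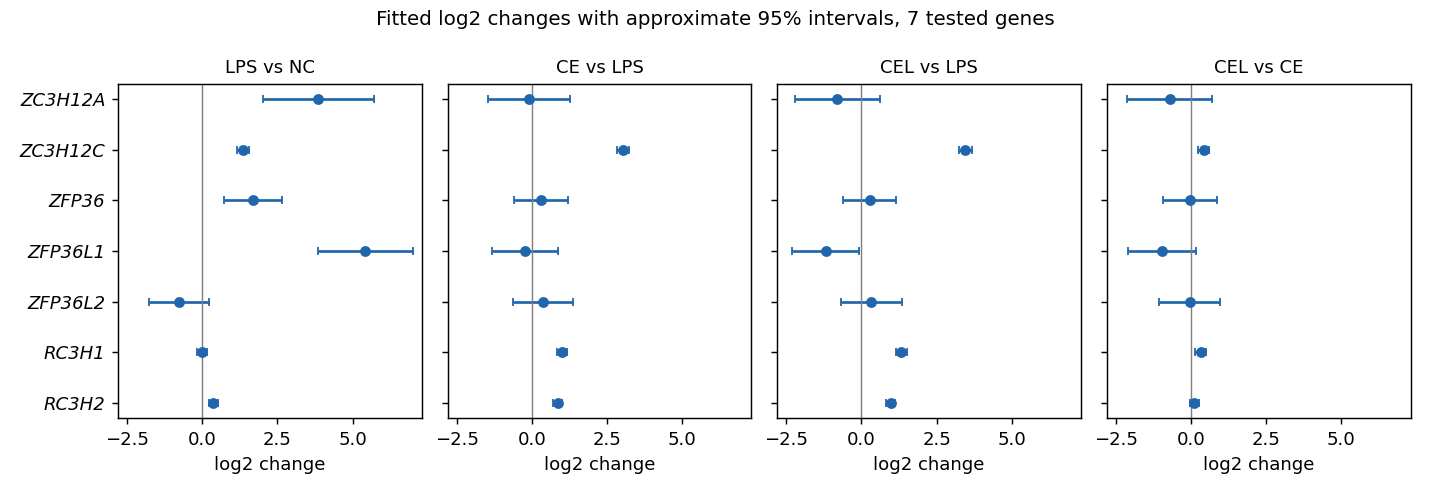
Fitted log2 change (points) with approximate 95% intervals for the 7 tested genes in 4 comparisons, the first-named group being higher to the right of 0. ZFP36L1 and ZC3H12A move most in LPS vs NC, and ZC3H12C, RC3H1 and RC3H2 lie right of 0 in CE vs LPS and CEL vs LPS, where the CE vs LPS panel and ZC3H12C in CEL vs LPS are descriptions.

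ZFP36 had 8.85, 5.34 and 5.64 TPM in CEL, 3.50, 12.6 and 3.59 in CE, 3.45, 4.84 and 7.37 in LPS, and 1.35, 1.68 and 1.22 in NC. Every LPS, CE and CEL library lay above every NC library, and CEL, CE and LPS overlapped, with CE-2 highest of all. ZFP36 rose in LPS over NC by 1.69 ± 0.44 (3.22-fold, adjusted p = 0.00805, edgeR). In CEL against LPS the change was 0.27 ± 0.41 (adjusted p = 0.603), and it passed with the GC offset (0.56, adjusted p = 0.0383). In CEL against CE it was -0.04 ± 0.41 (adjusted p = 0.958). Without CE-2 that value turned to 0.77 with an adjusted p of 0.0274.

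ZFP36L1 had 63, 43 and 28 counts in CEL, 38.1, 161 and 59 in CE, 103, 82 and 129 in LPS, and 5, 2 and 0 in NC. All 9 libraries given LPS and ATP lay far above NC, and the LPS libraries summed to 314 counts against 7 in NC, a ratio of 44.5 with an exact 95% interval of 21.3 to 112. The fitted log2 change of LPS over NC was 5.42 ± 0.72 (adjusted p = 8.61e-05, edgeR), and 6.44 without NC-1 (adjusted p = 0.000392). CEL lay below LPS in 3 of 3 libraries by -1.19 ± 0.51, but with an adjusted p of 0.0684. It passed with DESeq2 (adjusted p = 0.0342), with upper quartile factors (0.0411), without the filter on low counts (6.25e-05) and with the GC offset (0.0382). CE and LPS overlapped through CE-2. In CE against LPS the log2 difference was -0.23, and without CE-2 it was -1.04, given as a description.

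ZFP36L2 was the family member with no rise in LPS. Its counts were 146, 61.1 and 60.9 in CEL, 49.9, 162 and 58.8 in CE, 56.1, 54.8 and 107 in LPS, and 103, 158 and 103 in NC. Its counts were not whole in 12 of 12 libraries, so the authors' counting split reads there. The change of LPS against NC was -0.78 ± 0.46 (adjusted p = 0.194, edgeR), and it passed with the GC offset (-1.0, adjusted p = 0.0226) and without the filter on low counts (-0.72, adjusted p = 0.0308). CEL differed from LPS with an adjusted p of 0.575, and the values overlapped.

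The genes whose CE values were scattered had transcripts richer in GC than ZC3H12C and the roquins. The longest transcript had a GC content of 61.2% for ZC3H12A, 57.3% for ZFP36, 55.1% for ZC3H12D, 54.4% for ZFP36L2 and 49.5% for ZFP36L1, against 38.7% for RC3H1, 37.8% for RC3H2 and 36.7% for ZC3H12C. In CE-2 the deviation from the CE mean in log2 CPM was 1.31 for ZC3H12A, 1.14 for ZFP36L1, 1.13 for ZFP36 and 1.02 for ZFP36L2. The median deviation in CE-2 of all genes in the same GC band was 0.83 for ZC3H12A (over 60%) and 0.58 for ZFP36 (55 to 60%), but 0.14 for ZFP36L2 (50 to 55%) and -0.03 for ZFP36L1 (45 to 50%). LPS-3 was the highest LPS library for ZC3H12A (0.61 above its group mean), ZFP36L2 (0.54), ZFP36 (0.34) and ZFP36L1 (0.24). CEL-1 was the highest CEL library for ZFP36L2 (0.65), ZC3H12A (0.43), ZFP36L1 (0.38) and ZFP36 (0.37). The part of these deviations in the levels of the ZFP36 family and ZC3H12A, also in comparisons with LPS and CEL, was not tested.

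**Figure D4:**
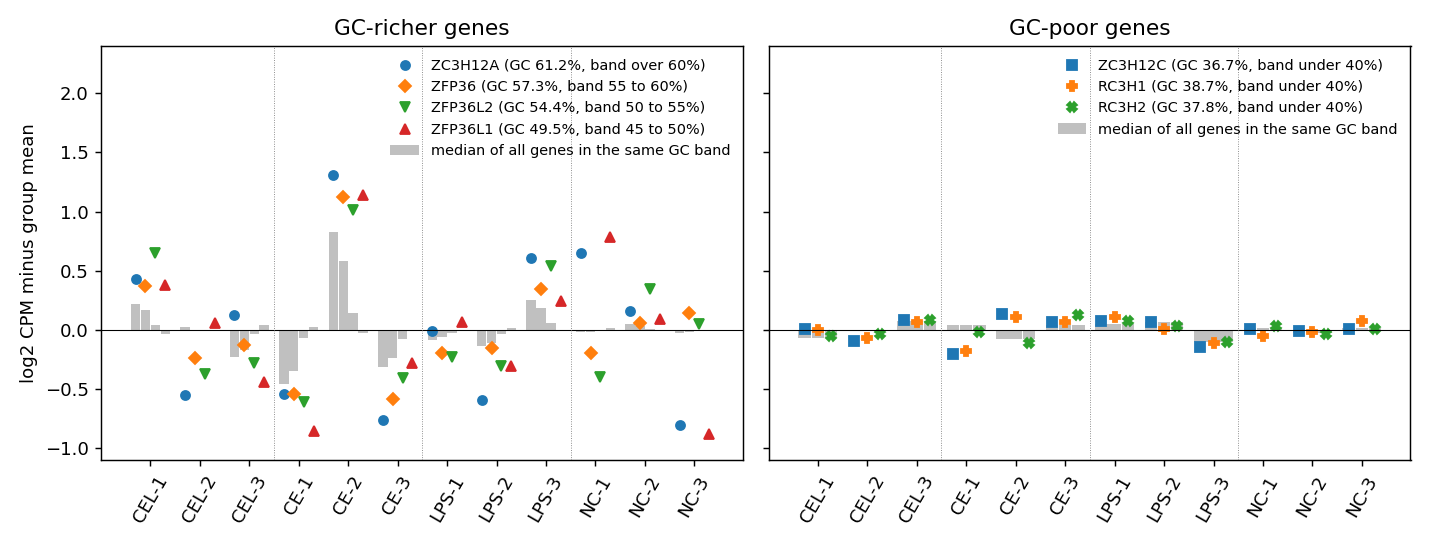
Deviation of log2 CPM from the library's own group mean for 4 GC-richer genes (left) and 3 GC-poor genes (right), each above a grey bar for the median of all genes in its own GC band. In CE-2 the 4 genes on the left lie at 1.02 to 1.31 and their bars at -0.03 to 0.83, while the GC-poor genes lie at -0.20 to 0.14 in the 12 libraries.

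Set against all tested genes, the counts of changed members were read beside the background. In LPS vs NC, 5 of 7 tested genes rose, where 45.9% of all genes changed and 22.4% rose. In CEL vs LPS, 3 of 7 rose, where 55.9% of all genes changed and 28.7% rose. ZC3H12C is among them with a value given only as a description, so nothing is read from this count. In CEL vs CE, 2 of 7 rose, where 23.6% changed and 8.78% rose. In CE vs LPS, 3 of 7 passed, all higher, where 49.6% of all genes did and 28.8% were higher, and nothing is read from it since that contrast was known when the genes were chosen. Against NC, 6 of 7 rose both in CEL (67.0% of all genes changed, 34.0% rose) and in CE (64.0% changed, 34.6% rose). Both counts include ZC3H12C, and the CE count uses the CE libraries of the known contrast, so nothing is read from them. The comparisons that share a group share its libraries.

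N4BP1 and MALT1 rose in LPS over NC, and TRAF6 was higher in CEL and CE than in LPS. N4BP1, a related endoribonuclease that MALT1 cleaves, had a mean of 79.0 CPM in CEL, 93.1 in CE, 62.4 in LPS and 20.5 in NC. N4BP1 rose by 1.61 ± 0.09 in LPS over NC and by 0.34 ± 0.09 in CEL over LPS (adjusted p = 0.00593, edgeR). The last call was lost with limma, with library size alone and without the filter on low counts. In CE over LPS the log2 difference of N4BP1 was 0.58 ± 0.09, given as a description. Of the 3 tested relatives N4BP1, ZC3H12B and KHNYN, 2 rose in CEL vs LPS, 2 rose in CE vs LPS, and 1 rose and 1 fell in LPS vs NC. Over the alternatives 0 to 2 rose in CEL vs LPS and 1 to 2 in CE vs LPS, where the call of ZC3H12B held in 3 of 16. ZC3H12B, regnase-2, lay between 2.20 and 3.47 CPM in group means. MALT1, the protease that cleaves ZC3H12A and the roquins, rose by 1.74 ± 0.13 in LPS over NC (adjusted p = 9.59e-07), and in CEL against LPS its change was 0.18 ± 0.13 (adjusted p = 0.268). TRAF6, a ubiquitin ligase of TLR4 signalling, had 54.9, 54.6 and 56.6 CPM in CEL, 37.5, 32.9 and 35.8 in CE, 18.9, 22.2 and 18.3 in LPS, and 16.5, 16.3 and 16.9 in NC. It rose by 1.49 ± 0.08 in CEL over LPS (adjusted p = 3.59e-08) and by 0.65 ± 0.08 in CEL over CE (adjusted p = 0.000154). MAPKAPK2 was low and scattered, with 6.4, 3.2 and 2.4 CPM in CEL and 3.2, 3.3 and 5.9 in LPS. Its log2 difference of CEL and LPS was -0.04 (adjusted p = 0.967, edgeR) and ran from -0.53 to 0.32 over the 16 alternatives. Of 16 upstream regulators, 6 rose and 1 fell in LPS vs NC (median 0.15), 7 and 1 in CE vs LPS (0.37), 7 and 2 in CEL vs LPS (0.20) and 5 and 0 in CEL vs CE (0.00). Of all genes, 45.9% changed and 22.4% rose in LPS vs NC, and 49.6% and 28.8% in CE vs LPS. In CEL vs LPS these shares were 55.9% and 28.7%, and in CEL vs CE 23.6% and 8.78%. The regulators changed at shares close to these in the comparisons of LPS with NC, CE and CEL, so nothing is read from their counts. Over the 16 alternatives, 6 to 7 rose and 0 to 2 fell in CEL vs LPS and 3 to 9 rose and 0 to 3 fell in CE vs LPS. In CEL vs CE 0 to 6 rose and 0 to 2 fell over the alternatives. There 3 rose without CE-2 and 3 with the replicate block, and with the GC offset 5 rose and 4 fell in LPS vs NC.

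The effector machinery was described by the same counts, beside an all-gene median of -0.01 in LPS vs NC, 0.08 in CE vs LPS, -0.03 in CEL vs LPS and -0.09 in CEL vs CE. Of all genes, 55.9% changed and 28.7% rose in CEL vs LPS, and 49.6% and 28.8% in CE vs LPS. In LPS vs NC these shares were 45.9% and 22.4%, and in CEL vs CE 23.6% and 8.78%. Of 20 deadenylases and adaptors, 12 rose and 2 fell in CEL vs LPS (median 0.29), 10 and 2 in CE vs LPS (0.33), 5 and 5 in LPS vs NC (0.06), and 4 and 2 in CEL vs CE (-0.02). Over the alternatives, 8 to 12 rose and 1 to 4 fell in CEL vs LPS and 6 to 12 rose and 1 to 4 fell in CE vs LPS, and with the GC offset 2 rose and 8 fell in LPS vs NC. In CEL vs CE 0 to 5 rose and 0 to 3 fell over the alternatives. PAN2, a catalytic subunit of a deadenylase, had 44.1, 37.5 and 42.6 CPM in CEL, 65.5, 83.8 and 73.6 in CE, 33.9, 33.7 and 33.5 in LPS, and 38.6, 37.8 and 35.8 in NC. PAN2 rose by 1.14 ± 0.09 in CE over LPS (adjusted p = 1.16e-06) and fell by 0.84 in CEL against CE (-0.84 ± 0.09, adjusted p = 6.54e-05). BTG2, an adaptor that activates CCR4-NOT, was lower in CEL and CE than in LPS. It had 67.3, 58.1 and 52.7 CPM in CEL, 52.5, 76.0 and 57.0 in CE, 181, 180 and 193 in LPS, and 9.30, 8.54 and 10.2 in NC. Its fall in CEL against LPS was -1.64 ± 0.13 (adjusted p = 1.01e-06).

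Of 21 tested decapping and 5′-to-3′ decay genes, 10 rose and 2 fell in CEL vs LPS (median 0.12), 12 and 0 in CE vs LPS (0.22), 5 and 8 in LPS vs NC (0.01) and 3 and 3 in CEL vs CE (-0.04). Over the alternatives, 6 to 10 rose in CEL vs LPS and 5 to 12 in CE vs LPS, with 7 in CE vs LPS under the GC offset, and with the replicate block 5 rose and 5 fell in LPS vs NC. In CEL vs CE 0 to 5 rose and 0 to 4 fell over the alternatives. PATL1, a decapping enhancer, had 390, 387 and 415 CPM in CEL, 345, 331 and 358 in CE, 146, 152 and 146 in LPS, and 70.4, 74.8 and 65.4 in NC. PATL1 rose by 1.42 ± 0.05 in CEL over LPS (adjusted p = 2.15e-09) and by 1.08 ± 0.05 in LPS over NC. Of 17 exosome and SKI complex genes, 1 rose and 7 fell in CEL vs LPS (median -0.31), 1 and 6 in CE vs LPS (-0.17), 2 and 5 in LPS vs NC (-0.10) and 1 and 6 in CEL vs CE (-0.23). Over the alternatives, 4 to 9 fell in CEL vs LPS and 4 to 10 in CE vs LPS, and with the GC offset 10 fell in LPS vs NC. In CEL vs CE 0 to 2 exosome and SKI genes rose and 0 to 6 fell over the alternatives. EXOSC3, an exosome cap subunit, had 26.0, 27.3 and 30.0 CPM in CEL, 35.1, 31.1 and 34.7 in CE, 84.5, 84.5 and 86.2 in LPS, and 104, 95.6 and 101 in NC. It fell by 1.62 in CEL against LPS (-1.62 ± 0.07, adjusted p = 7.45e-09). Of 15 tested other RNA-binding proteins of cytokine transcripts, 6 rose and 2 fell in CEL vs LPS (median 0.06), 7 and 2 in CE vs LPS (0.38), 1 and 6 in LPS vs NC (-0.13), and 1 and 1 in CEL vs CE (-0.08). Beside these lists, 55.9% of all genes changed and 28.7% rose in CEL vs LPS, and 49.6% and 28.8% in CE vs LPS. In LPS vs NC these shares were 45.9% and 22.4%, and in CEL vs CE 23.6% and 8.78%.

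**Figure D5:**
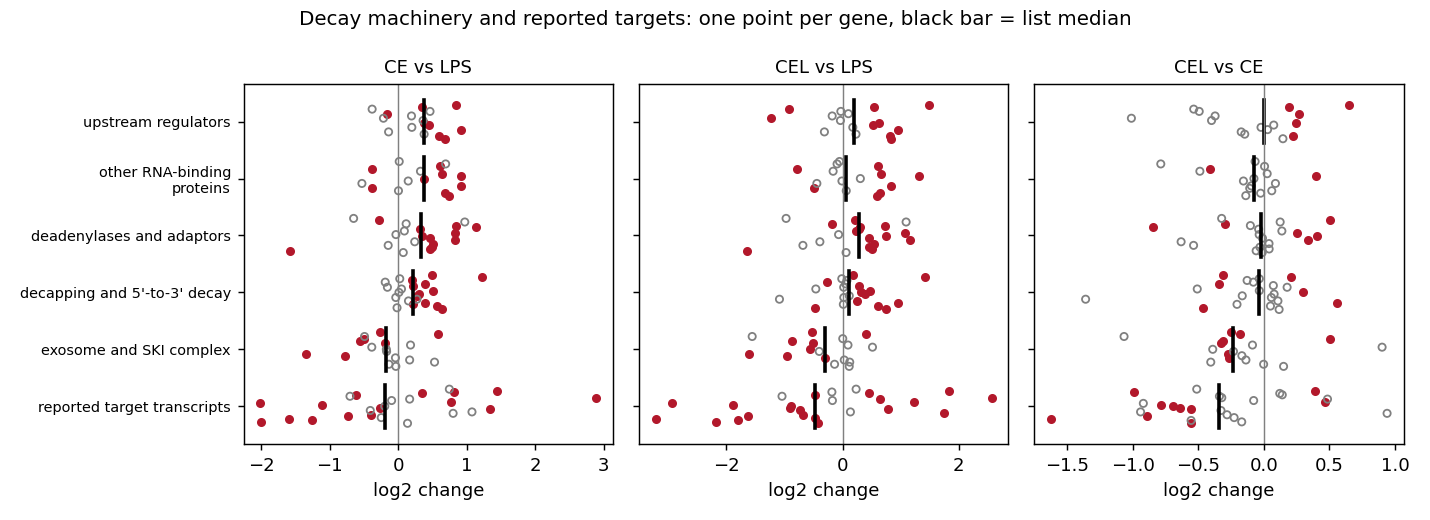
Log2 change of each tested gene of 6 lists in CE vs LPS, CEL vs LPS and CEL vs CE (red, adjusted p under 0.05; open, not passed; black bar, list median). The exosome and SKI genes have medians of -0.17, -0.31 and -0.23, and the reported targets -0.20, -0.48 and -0.34.

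Most of the reported targets of these decay factors were higher in LPS than in NC, and their differences between the drug-treated groups and LPS went both ways. Of 25 tested, 22 rose and 1 fell in LPS vs NC (median 4.98). In CEL vs LPS, 7 rose and 13 fell (median -0.48). In CE vs LPS, 6 rose and 9 fell (-0.20), and in CEL vs CE, 2 rose and 8 fell (-0.34). Of all genes, 45.9% changed and 22.4% rose in LPS vs NC, and 55.9% and 28.7% in CEL vs LPS. In CE vs LPS these shares were 49.6% and 28.8%, and in CEL vs CE 23.6% and 8.78%. Over the alternatives, 9 to 14 fell in CEL vs LPS. In CEL vs CE 0 to 5 rose and 2 to 9 fell over them, with 5 and 9 without CE-2. CXCL1, a neutrophil attractant, had 6.62, 7.37 and 5.80 CPM in CEL, 19.4, 20.2 and 21.4 in CE, 63.9, 62.2 and 58.2 in LPS, and 0.50, 0.37 and 0.34 in NC. CXCL1 fell by 3.22 in CEL against LPS (-3.22 ± 0.11, adjusted p = 1.03e-09) and by 1.62 in CEL against CE (-1.62 ± 0.10, adjusted p = 1.84e-06). IL6, a regnase and roquin target, fell by 2.93 in CEL against LPS (-2.93 ± 0.31, adjusted p = 9.44e-06) at under 4 CPM in each library. PTGS2, whose AU-rich window is shown above, fell by 0.48 in CEL against LPS (-0.48 ± 0.12, adjusted p = 0.00399), a call lost with limma.

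TNF, a ZFP36 and roquin target, had 64.1, 60.5 and 58.0 CPM in CEL, 108, 150 and 105 in CE, 68.5, 67.9 and 71.0 in LPS, and 2.74, 1.87 and 2.23 in NC. CE stood above both CEL and LPS, and CE-2 was the highest library. TNF fell by 0.99 in CEL against CE (-0.99 ± 0.14, adjusted p = 0.000392, edgeR) and by 0.81 without CE-2 (adjusted p = 0.000112), and its change in CEL against LPS was -0.18 ± 0.14 (adjusted p = 0.276). The calls of TNF, TRAF6 and PAN2 in CEL vs CE were lost with limma on log2(TPM + 0.1). TNFAIP3, an inhibitor of NF-kB signalling, had 655, 605 and 598 CPM in CEL, 422, 532 and 468 in CE, 169, 174 and 179 in LPS, and 10.9, 11.7 and 10.3 in NC. TNFAIP3 rose by 1.83 ± 0.08 in CEL over LPS (adjusted p = 7.62e-09). NFKBIZ, a regnase target that encodes a nuclear NF-kB cofactor, rose by 0.65 ± 0.16 in CEL over LPS (adjusted p = 0.00485), a call lost with limma. ZFP36-type nonamers stood in transcripts that fell and in transcripts that rose, among them CXCL1 with 3 and TNFAIP3 with 1.

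The transcripts whose pattern was most like that of ZC3H12C over the 12 libraries were CREBRF, CD300A, DUSP10 and SKIL, with root mean square differences of centred log2 CPM of 0.175, 0.196, 0.338 and 0.395, against a median of 1.96 over 7459 candidates. CREBRF had group means of 299 CPM in CEL, 244 in CE, 28.1 in LPS and 14.1 in NC. SKIL, a repressor of SMAD signalling, had 386 CPM in CEL, 308 in CE, 59.0 in LPS and 11.0 in NC. For ZC3H12A the nearest were IL10RA (0.441), RNF213 (0.447) and TAP1 (0.455), and for ZFP36 CHST11 (0.260) and HLA-E (0.273) were among the nearest, against medians of 1.38 and 0.885 over 7460 candidates. The likeness of ZC3H12A rests on few counts.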

How the data were processed

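RNA was sequenced from 12 THP-1 libraries. Libraries were made from oligo-dT selected RNA, per the labels' protocols, and genome build hg38 was used, per the submitters' processing notes. The annotation, the strand setting, the aligner and the counter are not given in the sources used. The deposited tables hold the authors' estimated counts (29.3% of nonzero values are not whole within 0.005) and a TPM table. A deposited FPKM table was not used. Column names differ from the sample labels, and the CE columns, headed only as treated, were matched as the remaining group.

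The estimated counts were rounded and fitted over all 12 libraries in edgeR 4.0.16 (filterByExpr, TMM, quasi-likelihood F-test, two-sided), with Benjamini-Hochberg adjustment over 14065 genes and a threshold of 0.05. Rose, fell or changed means passing it. The standard error is approximate, taken from the change and its F statistic. CPM use TMM-adjusted library sizes. Alternatives used DESeq2 1.42.0, limma 3.58.1 on log2(TPM + 1) and log2(TPM + 0.1), other scalings, no filter on low counts, a replicate block and each library left out, and, chosen after seeing the data, an offset for GC content and the counts of the lists under these settings. A fold on log2(TPM + pseudocount) understates changes of low genes.

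The genes and lists were chosen with earlier results of these data known. Named genes are the 8, up to 2 rises and 2 falls per list and comparison, and 10 fixed genes, not all of which are printed, and 2 genes that the rules name are not reported here. The 7 lists are regnase relatives, upstream regulators, other RNA-binding proteins, deadenylases, decapping, exosome and SKI genes, and reported targets. The labels name no separate cultures, so p-values measure the spread between these samples only, and the exact intervals of count ratios cover counting error only.

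Replicate numbers are also the labels' batch numbers, which pairs the libraries by the labels. Over 7460 genes, deviations from the group mean correlated above 0.1 in 6 of 18 same-numbered pairs (median -0.19, from -0.86 to 0.73), and a single library, 1 of 12, was closest to its own number.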

Additional observations from a re-analysis of the deposited data

How the results depend on the processing

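Over the 7 tested genes and 6 comparisons, 650 alternative values kept their side of the threshold, and in 34 of these, which passed in neither fit, the sign turned. Another 13 gained a call, 8 lost it and 1 reversed, which was ZFP36 in CEL vs CE without CE-2 (0.77, adjusted p = 0.0274, leave-one-out range -0.22 to 0.77), and the cause was not tested. The replicate block ended no call of the 8 genes, and ZC3H12C in CEL over LPS was 3.45 with it. With limma on log2(TPM + 1) and log2(TPM + 0.1), the genes changed numbered 2963 and 2951 in LPS vs NC, 3586 and 3545 in CE vs LPS, 4984 and 4978 in CEL vs LPS, and 266 and 225 in CEL vs CE, where 0 and 0 of the 8 genes changed. With the GC offset 5 of the 8 changed in CEL vs LPS. Leaving out each replicate gave 2120 to 4066 genes and 1 to 3 of the 8 in CEL vs CE, the fewest genes without CEL-2 (2120) and CEL-1 (2165). Upper quartile factors moved the all-gene median by -0.11 in LPS vs NC, -0.17 in CE vs LPS and -0.14 in CEL vs LPS, and genes higher and lower in LPS vs NC were 2604 and 4387 in place of 3152 and 3306. In CE vs LPS they were 2945 and 4000, and 3040 and 3833 with library size alone, in place of 4057 and 2915. In CEL vs CE they were 1581 and 1756 with library size alone, and 1908 and 1765 with the GC offset, in place of 1235 and 2086. Without the filter on low counts LPS vs NC gave 3429 and 1956, and the GC offset gave 2594 and 4980. With upper quartile factors CEL vs NC gave 3828 and 5805, in place of 4778 and 4647, and CE vs NC gave 3571 and 5646, in place of 4869 and 4139, with median shifts of -0.24 and -0.28. Low counts limit ZC3H12A, ZC3H12D and ZFP36L1.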
